A study of Homo sapiens with 9 samples.

Results

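The AP-1 transcription factor genes FOS, FOSB, FOSL1, FOSL2, JUN, JUNB, JUND and MAFF were followed across 9 libraries of HuH-7, a human hepatocellular carcinoma cell line. The 8 genes were taken by symbol, each matched to 1 of the 63677 gene identifiers in the count files, and all 8 were among the 18237 genes with a level of 1 CPM (reads scaled to a common library size) or more in 2 or more libraries. FOSB and FOSL1 passed although each was at 0 counts in 2 libraries. FOSL1 reached 1 CPM in 1 library without arsenic and in all 3 arsenic libraries, so it passed only through the arsenic libraries, and its values in arsenic comparisons are a description. Ribosomal RNA-depleted total RNA was sequenced to compare cell line models of liver toxicity, with 1 library for each condition. The control library came from cells left untreated. Acetaminophen (10 mM) was given alone, together with serum exosomes, or together with caffeine, and the exosomes (those of 1 ml serum) and caffeine (2 mM) were also each given alone. Arsenic was given at doses of 5 or 15 µM, and the lower dose also in combination with 5 µM copper. The labels state neither exposure times nor the chemical form of arsenic and copper.

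AP-1 is a family of dimers of basic leucine zipper (bZIP) proteins. Jun proteins pair with each other or with Fos proteins, whereas FOS does not form stable pairs with itself, and the dimers bind the AP-1 site and, in some pairings, the related cyclic AMP response element. Several of the genes are immediate early genes, transcribed within minutes of a growth factor or stress signal through transcription factors that are already in the cell, and their messages decay quickly. In liver cells JUN is known for roles in proliferation and survival, and the small Maf protein MAFF pairs with other bZIP proteins such as NFE2L2.

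The smallest library (acetaminophen with exosomes) had 658725 reads on genes and the largest (caffeine) 8227906, and levels are CPM scaled by trimmed mean of M-values (TMM). A count of 3, below which a level was taken as not resolved, was worth between 0.351 CPM in the caffeine library and 3.82 CPM in acetaminophen with exosomes. The reads carry no molecular tags, so every interval covers counting error alone, and no condition has a replicate. Markers of the labelled cell type were present in each library, with ALB between 3330 and 12610 CPM, and of the blood and endothelial cell markers HBA2, PPBP, PF4 and PECAM1 were at 0 in all 9. The endothelial marker VWF was at 4.83 (control) and 11.2 CPM (acetaminophen), above FOS in both libraries, and no blood marker was above 3.20 CPM in any library. Fewer cells of a kind and less RNA per cell cannot be told apart in such bulk RNA. The acetaminophen and arsenic 5 µM libraries stood apart in base composition: over 12046 genes, the log2 level relative to the mean of the 9 libraries fell with GC content (Pearson's r -0.578 and -0.452), while it rose in arsenic with copper (r 0.383) and in acetaminophen with caffeine (r 0.352). The 8 transcripts run from 52.6% GC (FOS) to 69.7% GC (JUND), so ratios that involve these libraries are also given with the trend on GC content and transcript length removed.

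The 250 bases before the start of transcription were searched on both strands for the AP-1 site TGANTCA and 3 related bZIP elements, TGACGTCA, TGACGTAA and TGACATCA. Reference promoters from RefSeq (GRCh38.p14) were found for 7 of the 8 genes. The promoters printed here are those of the 3 genes whose levels were apart in more than 6 of the 12 library pairs described further on (JUN, JUNB and JUND), and that of FOSB, chosen after its values were seen. Capitals mark a match to 1 of the 4 elements. The JUN window is chr1:58784048-58784297, minus strand, that of JUNB chr19:12791236-12791485, plus strand, that of JUND chr19:18281623-18281872, minus strand, and that of FOSB chr19:45467746-45467995, plus strand.
JUN: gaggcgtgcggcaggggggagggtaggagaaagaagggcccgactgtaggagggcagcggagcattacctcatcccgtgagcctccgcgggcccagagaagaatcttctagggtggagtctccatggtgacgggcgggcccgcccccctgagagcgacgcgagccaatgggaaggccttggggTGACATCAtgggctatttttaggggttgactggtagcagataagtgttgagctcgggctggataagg
JUNB: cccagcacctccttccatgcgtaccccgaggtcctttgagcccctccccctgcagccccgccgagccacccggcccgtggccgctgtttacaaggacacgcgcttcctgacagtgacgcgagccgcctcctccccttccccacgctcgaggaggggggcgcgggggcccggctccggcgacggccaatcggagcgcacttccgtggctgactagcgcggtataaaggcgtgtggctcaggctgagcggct
JUND: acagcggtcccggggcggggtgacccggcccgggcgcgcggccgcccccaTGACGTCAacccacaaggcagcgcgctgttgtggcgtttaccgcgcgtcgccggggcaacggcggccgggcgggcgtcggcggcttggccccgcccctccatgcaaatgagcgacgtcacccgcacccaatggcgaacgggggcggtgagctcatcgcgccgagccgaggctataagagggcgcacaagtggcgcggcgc
FOSB: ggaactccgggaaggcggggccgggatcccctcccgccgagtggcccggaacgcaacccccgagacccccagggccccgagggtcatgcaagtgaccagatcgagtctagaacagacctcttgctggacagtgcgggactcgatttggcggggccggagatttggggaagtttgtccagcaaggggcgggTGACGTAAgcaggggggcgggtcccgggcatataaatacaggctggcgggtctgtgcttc

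JUN had TGACATCA 67 bases before its start, an element that 2.38% of 35114 RefSeq promoters of the same length hold. JUND had the palindromic cyclic AMP response element TGACGTCA 200 bases before its start, against 1.65% of all promoters. MAFF has 2 promoter windows, and its first held the same element 54 bases before the start. The second MAFF window held CCGCCC and no other motif searched here. FOSB had TGACGTAA 60 bases before its start, against 0.37%. None of these promoters, JUNB included, held TGANTCA, which 6.57% of promoters hold. CCAAT was found in JUN, JUNB, JUND and MAFF (32% of all promoters) and CCGCCC, the core of a GC box, in 6 of the 7 genes (42.6%). The antioxidant response core TGACNNNGC was in JUND and MAFF (10.9%) and the heat shock element GAANNTTC in JUN (5.78%). The CArG box of serum response factor was in none of these 250-base windows (1.16%). Sites further upstream, in FOS or any other member, lay outside the search, so their absence was not tested. No marked match overlaps another of these motifs. A match describes these letters only, and no binding was measured.

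**Figure D1:**
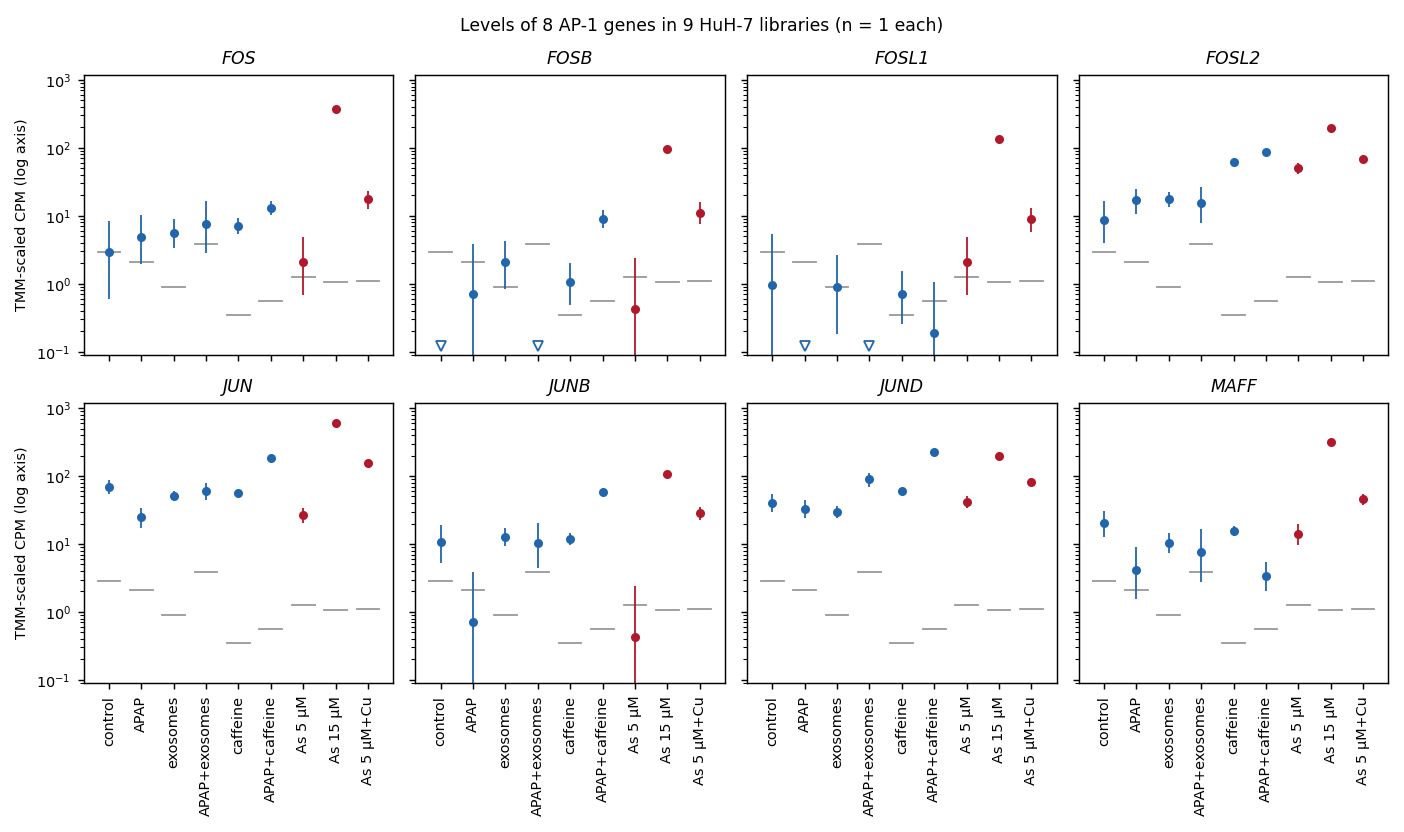
Level of each AP-1 gene (TMM-scaled CPM, log axis) in each of the 9 HuH-7 libraries, with the exact 95% counting interval as a vertical line, the level of 3 counts in that library as a grey bar, and libraries at 0 counts as open triangles. APAP is acetaminophen, As arsenic, Cu copper, and arsenic libraries are red; the arsenic 15 µM library is the highest for 7 genes, and for JUND it comes after acetaminophen with caffeine.

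Among the Fos genes, FOS, the founding member and an immediate early gene, was at 13.2 CPM or less in the 6 libraries without arsenic. The control, acetaminophen and acetaminophen with exosomes libraries held 3, 7 and 6 FOS counts, while the deeper caffeine libraries held 61 and, with acetaminophen, 70. Its level was 2.90 CPM in the control, 4.91 with acetaminophen, 5.67 with exosomes, 7.63 with acetaminophen and exosomes, 7.14 with caffeine, 13.2 with acetaminophen and caffeine, 2.13 with arsenic at 5 µM, 371.5 with arsenic at 15 µM and 17.4 with arsenic and copper. The arsenic 15 µM library held 1036 FOS counts and the arsenic 5 µM library 5. Of the 8 steps between neighbours in this order, 1 had an interval that excluded equality, the step from arsenic 15 µM down to arsenic with copper, so the order of the other 8 libraries is not resolved step by step. FOS at 15 µM was 128 times the control (95% interval 43.8 to 623, on 3 control counts) and 175 times arsenic at 5 µM (74.6 to 539).

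FOSB, a close relative of FOS with a splice form that lacks the activation domain, was the gene with the lowest median level per kilobase of transcript. It was at 0 in the control and in acetaminophen with exosomes, at 0.702 CPM with acetaminophen, 2.09 with exosomes, 1.05 with caffeine, 9.05 with acetaminophen and caffeine, 0.425 with arsenic at 5 µM, 95.4 with arsenic at 15 µM and 11.1 with arsenic and copper. With the control set to 3 counts, FOSB was at least 33.0-fold higher at 15 µM arsenic and at least 3.84-fold higher with arsenic and copper. In the caffeine background, where depth was highest, it was 8.59 times as high with acetaminophen as without (4.17 to 19.9, 48 and 9 counts).

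FOSL1 encodes FRA1, a Fos protein without the strong activation domain of FOS. It was at 0.965 CPM in the control, 0 with acetaminophen, 0.896 with exosomes, 0 with acetaminophen and exosomes, 0.702 with caffeine, 0.189 with acetaminophen and caffeine, 2.13 with arsenic at 5 µM, 134 with arsenic at 15 µM and 8.90 with arsenic and copper. All 6 libraries without arsenic held 6 or fewer FOSL1 counts, and all 3 arsenic libraries were listed above them, as were 3.90% of the tested genes. The 5 counts at 5 µM were worth less than 3 counts in the control or in acetaminophen with exosomes, and the step from 5 µM down to the control (0.247 to 104 times) was not resolved. No other member had its 3 arsenic libraries above the other 6. The ratio of arsenic at 15 µM to the control was 139, with an interval from 24.8 to 5504 because the control held 1 count.

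FOSL2, which encodes the related FRA2, was also high in both caffeine libraries. It was at 8.68 CPM in the control, 16.9 with acetaminophen, 17.6 with exosomes, 15.3 with acetaminophen and exosomes, 61.9 with caffeine, 86.7 with acetaminophen and caffeine, 50.2 with arsenic at 5 µM, 198 with arsenic at 15 µM and 68.6 with arsenic and copper. The 4 libraries without caffeine or arsenic were the 4 lowest. The step from them to the other 5, between arsenic at 5 µM and exosomes, was 2.07 to 3.96 times by its interval.

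JUN, the founding Jun protein and a strong activator, had readable counts in all 9 libraries. Its level was 68.5 CPM in the control, 24.6 with acetaminophen, 51.4 with exosomes, 59.8 with acetaminophen and exosomes, 55.9 with caffeine, 187 with acetaminophen and caffeine, 26.4 with arsenic at 5 µM, 602 with arsenic at 15 µM and 158 with arsenic and copper. In 3 libraries it stood above the control by more than counting error, and acetaminophen alone and arsenic at 5 µM stood below all others. Steps between control, acetaminophen with exosomes, caffeine and exosomes were within counting error.

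JUNB, a weaker activator that can oppose JUN, had the same 3 highest and 2 lowest libraries as JUN. It was at 10.6 CPM in the control, 0.702 with acetaminophen, 12.8 with exosomes, 10.2 with acetaminophen and exosomes, 11.8 with caffeine, 59.0 with acetaminophen and caffeine, 0.425 with arsenic at 5 µM, 107 with arsenic at 15 µM and 28.2 with arsenic and copper. The acetaminophen and arsenic 5 µM libraries held 1 JUNB count each. By GENCODE 29, exons of JUNB overlap exons of HOOK2 on the opposite strand, and since the strand setting of the counting is not given, reads from that overlap can have been assigned either way.

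JUND, which many cell types express without a stimulus, was the member with the smallest ratio of highest to lowest library. It was at 40.5 CPM in the control, 33.0 with acetaminophen, 29.6 with exosomes, 89.0 with acetaminophen and exosomes, 59.6 with caffeine, 228 with acetaminophen and caffeine, 42.1 with arsenic at 5 µM, 198 with arsenic at 15 µM and 82.4 with arsenic and copper. Acetaminophen with caffeine was above arsenic at 15 µM by an interval of 1.04 to 1.28 times, which made JUND the 1 member whose highest library was not arsenic at 15 µM.

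MAFF, a small Maf protein without an activation domain, was low in the libraries with acetaminophen. It was at 20.3 CPM in the control, 4.21 with acetaminophen, 10.5 with exosomes, 7.63 with acetaminophen and exosomes, 15.7 with caffeine, 3.39 with acetaminophen and caffeine, 14.0 with arsenic at 5 µM, 313 with arsenic at 15 µM and 45.6 with arsenic and copper. The 3 acetaminophen libraries were its 3 lowest, as they were for FOSL1 on 1 count or none. The MAFF step from exosomes down to acetaminophen with exosomes (0.57 to 3.98 times) was not resolved. Acetaminophen with caffeine was among the 3 highest libraries for FOS, FOSB, FOSL2, JUN, JUNB and JUND and was the lowest for MAFF, with 18 counts. Its order against acetaminophen alone was within counting error (0.403 to 3.26 times).

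Scaled to transcript length, the median level over the 9 libraries ran in the order JUND (32.0 CPM per kilobase), JUN (16.9), FOSL2 (7.48), JUNB (6.49), MAFF (4.27), FOS (3.31), FOSL1 (0.537) and FOSB (0.279). The make-up of the family differed between libraries on the same scale. In the control, JUND and JUN made up 38.6% and 34.4% of the length-scaled reads of the 8 genes, FOS 2.38%, FOSL1 1.03% and FOSB 0%. In arsenic at 15 µM, FOS made up 23.3%, JUN 23.0%, JUND 14.4%, MAFF 12.9% and FOSL1 10.9%. The summed level of the 8 genes was 152 CPM in the control, 84.9 to 587 in the other 5 libraries without arsenic, 138 in arsenic at 5 µM, 2019 in arsenic at 15 µM and 420.3 in arsenic with copper. As a share of the unscaled member reads, FOS went from 1.90% in the control (exact binomial 95% interval 0.393 to 5.45) to 18.4% in arsenic at 15 µM (17.4 to 19.4). JUND went from 26.6% (19.9 to 34.2) to 9.81% (9.04 to 10.6).

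**Figure D2:**
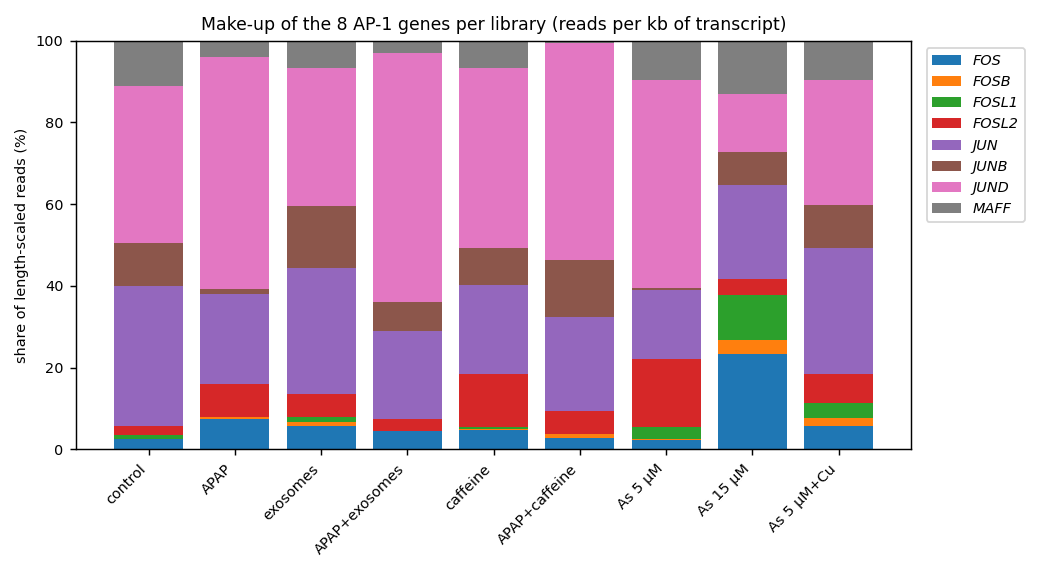
Share of each gene in the length-scaled reads of the 8 AP-1 genes (percent, stacked bars, 1 bar per library). JUND and JUN take most of the bar in every library except arsenic at 15 µM, where FOS, FOSL1 and MAFF take 23.3%, 10.9% and 12.9%.

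Arsenic was compared with the other treatments in an additive edgeR quasi-likelihood model that fits 1 effect each for acetaminophen, exosomes, caffeine and arsenic over all 9 libraries. With no replicates, the spread behind its p-values mixes departures from additive effects, arsenic dose and copper included, with variation between cultures. These cannot be told apart, and no condition's own variation is measured. All 8 genes had a positive arsenic coefficient, and FOS and FOSB passed the adjusted p threshold of 0.05. FOS rose by 5.45 on the log2 scale (SE 1.31, adjusted p = 0.0435) and FOSB by 7.51 (SE 1.81, adjusted p = 0.0445). These are 2 of 8 members, where 0.340% of all tested genes were called higher. The coefficients of FOSL2 (3.28, adjusted p = 0.0543), MAFF (2.84, 0.206), JUN (2.55, 0.243), JUNB (3.07, 0.292) and JUND (1.98, 0.307) missed the edgeR threshold. That of FOSL1, admitted by the arsenic libraries, was 5.90. The median coefficient was 3.18 for the members and 0.07 for all genes. Hepatocyte markers moved the other way: all 9 had a negative arsenic coefficient (median -1.28, none called), and their summed level was 8709 to 23070 CPM in the arsenic libraries and 15120 to 28310 CPM in the other 6. The 5 fibroblast and stellate markers summed to 31.9 to 52.3 and 22.0 to 56.1 CPM, the 7 blood markers to 0 to 0.371 and 0.702 to 3.58 CPM, and the 3 endothelial markers to 0.371 to 1.28 and 1.51 to 11.2 CPM. The part of these differences in the AP-1 values was not tested.

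The calls for FOS and FOSB were lost, with coefficients still positive, under DESeq2 size factors, DESeq2's test and protein-coding genes alone. They were also lost without the control, the acetaminophen, the acetaminophen with exosomes or the arsenic 15 µM library, and without the acetaminophen and arsenic 5 µM libraries together, which left FOSL2 called. DESeq2 called FOSL2 (adjusted p = 0.00789) in place of FOS and FOSB. Without the arsenic 5 µM library all 8 members were called by edgeR, with FOS at 6.04 (adjusted p = 1.53e-09) and JUND, the smallest, at 2.34 (adjusted p = 0.0152). In that fit 544 of 18117 genes were called higher, against 62 of 18237 with all 9 libraries. In either direction, 4.31% and 0.494% of genes were called. FOSL1, admitted by the arsenic libraries, is among the 8 as a description only. Without the arsenic 15 µM library no member was called, and the member coefficients ran from 0.78 (MAFF) to 4.90 (FOSB).

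**Figure D3:**
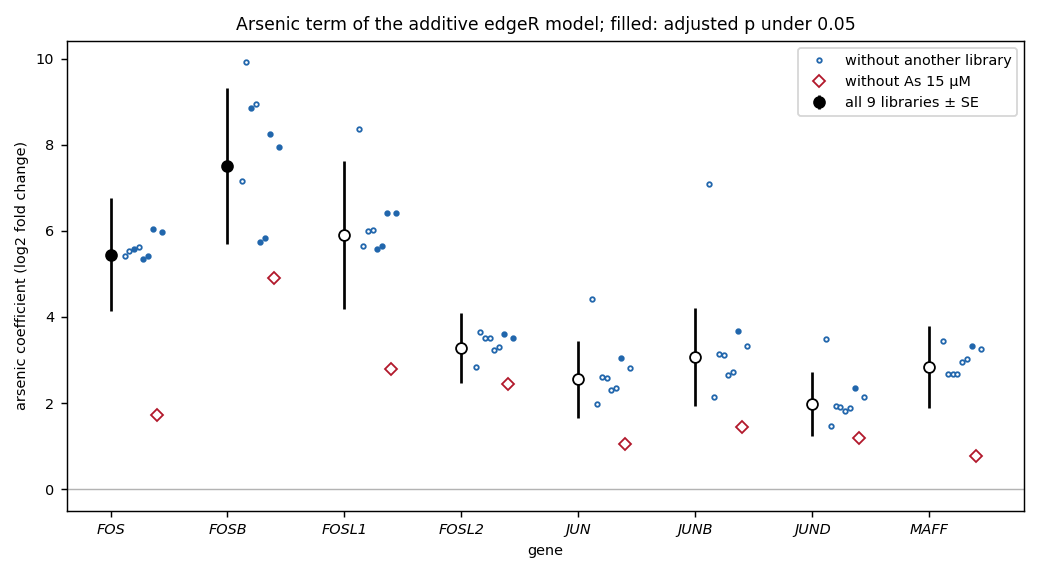
Arsenic coefficient (log2 fold change) of each gene in the additive edgeR model. Black circles with their SE use all 9 libraries, small circles and red diamonds leave out 1 library, and filled symbols mark an adjusted p under 0.05; FOS and FOSB are filled with all libraries, and each diamond lies below its black circle.

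The arsenic dose was examined with 1 extra term for 15 µM in the same model. It is set by the single 15 µM library, which is assumed to vary like the others, since only those give the spread. Of the 7 members that passed the filter without the arsenic libraries, 4 were called, all higher, where 0.795% of all genes were called higher. FOS was 5.23 higher at 15 µM than the other arsenic libraries on the log2 scale (SE 0.82, adjusted p = 1.345e-06), FOSB 4.02 higher (SE 0.84, adjusted p = 0.00106), MAFF 3.39 higher (SE 0.77, adjusted p = 0.00361) and JUNB 2.89 higher (SE 0.79, adjusted p = 0.0306). FOSL1, admitted by the arsenic libraries, had a coefficient of 4.58 (SE 0.84). JUN had 2.70 (adjusted p = 0.0539), FOSL2 1.73 (adjusted p = 0.352) and JUND 1.67 (adjusted p = 0.397) in edgeR. FOS and MAFF were also called by DESeq2 and with protein-coding genes alone, FOSB and JUNB were not. JUNB was also lost under DESeq2 size factors. The libraries it is set against are arsenic 5 µM, which stood apart in base composition, and arsenic with copper.

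Direct ratios were taken for 12 library pairs, which compares 2 libraries and not 2 conditions. Genes that differed 2-fold or more (0.5 counts added to each library) and whose exact interval excluded 1 were counted as apart. At 15 µM arsenic all 8 members were higher than in the control, where 16.5% of all genes were higher, with a median log2 ratio of 4.17 against -0.16 for all genes. In this and the other arsenic pairs, the member counts and medians hold FOSL1, which the arsenic libraries admitted, as a description only. The ratios were 22.8 for FOSL2 (11.9 to 50.0), 15.5 for MAFF (10.1 to 25.1), 10.1 for JUNB (5.57 to 20.5), 8.78 for JUN (6.93 to 11.3) and 4.88 for JUND (3.57 to 6.85), beside those of FOS, FOSB and FOSL1 given above. At 5 µM the picture was mixed. FOSL2 was 5.78 times the control (2.94 to 13.0), 1 member higher where 16.4% of genes were. JUN at 0.385 times (0.269 to 0.549) and JUNB at 0.0401 times (0.000931 to 0.276) were lower, as were 15.0% of genes, and the other 5 members were not apart.

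Between the arsenic doses, all 8 members, FOSL1 as a description, were higher at 15 than at 5 µM, where 19.6% of genes were. The ratios ran from 3.94 times for FOSL2 (3.22 to 4.85) and 4.70 for JUND (3.79 to 5.88) to 252 times for JUNB (44.9 to 9990, on 1 count at 5 µM). JUN was 22.8 times (17.7 to 29.9) and MAFF 22.3 times (15.8 to 32.7) as high. With the trend on GC content and length removed, JUND was no longer apart (1.27 times) and the other 7 still were, with JUNB at 89.7 and FOS at 129 times.

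Arsenic at 5 µM with copper was above the control for all 8 members as well, FOSL1 as a description, where 9.26% of genes were higher. The median log2 ratio was 1.87 against -0.03 for all genes, and JUND (2.03 times, 1.46 to 2.90), MAFF (2.25, 1.41 to 3.77) and JUN (2.31, 1.79 to 3.01) had the smallest ratios. FOSL2 had 7.90 (4.07 to 17.6) and FOS 6.02 (1.94 to 30.3). With the GC and length trend removed all 8 stayed higher. Under DESeq2 size factors 6 did, with JUND and MAFF under 2-fold (log2 ratios of 0.85 and 0.98), and under library totals or with protein-coding genes alone 7 did, without JUND. Against arsenic at 5 µM alone, 6 members, FOSL1 as a description, were higher with copper, where 16.5% of genes were. FOSL2 (1.37 times, 1.08 to 1.74) and JUND (1.96, 1.54 to 2.50) were under 2-fold. With the trend removed 4 stayed higher (FOS, FOSB, JUN and JUNB) and JUND was lower, at 0.459 times. Both of these comparisons share the arsenic with copper library.

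The extra term for copper called 0% of genes and no member in edgeR, which compares arsenic with copper with both other arsenic libraries. At an unadjusted p under 0.05 it had 428 genes and 2 members, FOS (-3.42) and FOSL1 (-2.93), and DESeq2 called none. All 8 copper coefficients were negative, with a median of -1.42 against -0.12 for all genes, and the 15 µM library is part of this comparison. The arsenic 15 µM library was above all 8 others for 7 members, all but JUND, a pattern of 17.4% of all genes. Arsenic 15 µM and arsenic with copper were both above the other 7 libraries for FOS, FOSB, FOSL1 and MAFF, a pattern of 6.43%. The step from arsenic with copper down to acetaminophen with caffeine was not resolved for FOS (0.893 to 1.94 times) or FOSB (0.753 to 1.98 times). Both patterns count FOSL1, which the arsenic libraries admitted, as a description only.

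**Figure D4:**
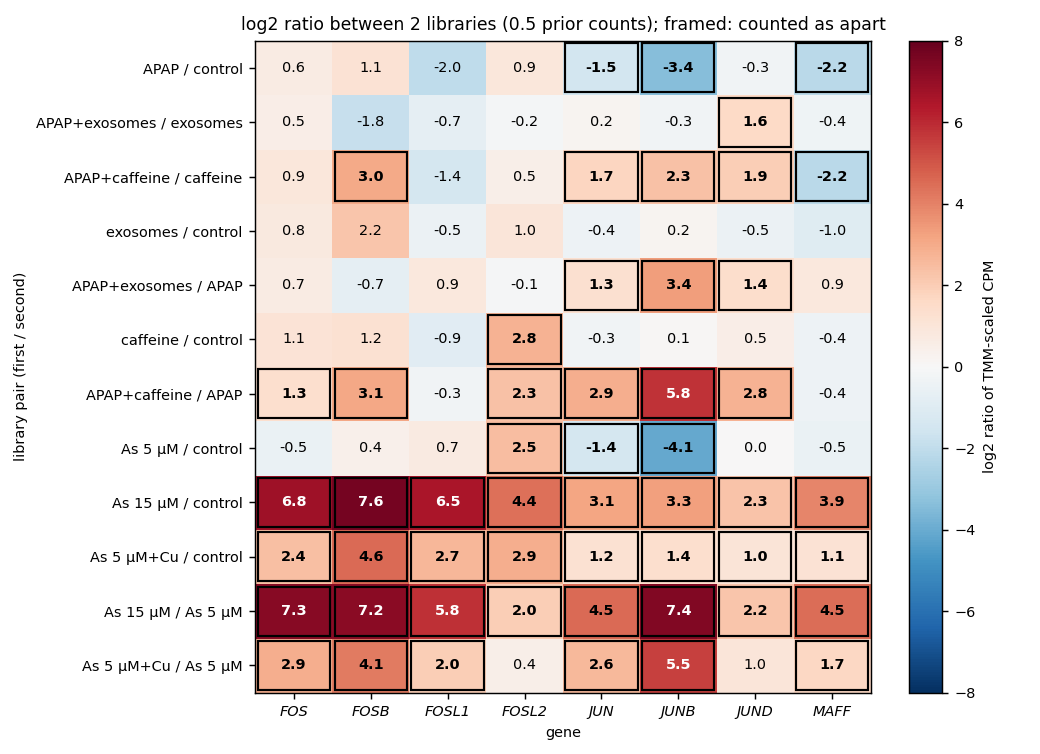
Log2 ratio of TMM-scaled CPM (0.5 prior counts) of each AP-1 gene, in columns, for 12 pairs of libraries, in rows, with first over second library. Bold framed values are counted as apart. All 8 genes are framed and positive in arsenic 15 µM against control, arsenic with copper against control and arsenic 15 µM against 5 µM. FOSL1, which the arsenic libraries admitted, is among them as a description only.

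Acetaminophen was measured on 3 backgrounds, and the members did not move one way. Alone against the control, JUN, JUNB and MAFF were lower, where 12.1% of all genes were, at 0.359 times (0.232 to 0.545), 0.0661 times (0.00154 to 0.455, 1 and 11 counts) and 0.208 times (0.0686 to 0.532). The other 5 members were not apart. With the GC and length trend removed no member was lower and 2 were higher, and the member median of the log2 ratio went from -0.88 to 0.40. With exosomes on both sides, JUND was 3.01 times as high with acetaminophen (2.19 to 4.13), 1 member higher where 5.22% of genes were, and no member was lower. With caffeine on both sides, JUNB was 4.99 times (3.98 to 6.31), JUND 3.84 times (3.46 to 4.26), JUN 3.34 times (2.99 to 3.74) and FOSB 8.59 times as high with acetaminophen, 4 members higher where 12.6% of genes were. MAFF was 0.216 times (0.124 to 0.355), 1 member lower where 13.0% of genes were. The caffeine pair has the deepest libraries, and its counts of members were the same with the GC and length trend removed.

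The additive acetaminophen term called 0.0219% of genes and none of the 8 members in edgeR. MAFF had the smallest p (-1.69, SE 0.79, adjusted p = 0.868), the 1 member with an unadjusted p under 0.05. Its ratio was under 1 in all 3 acetaminophen pairs (0.208, 0.730 and 0.216), but the 0.730 with exosomes on both sides (0.251 to 1.75) was not apart. Whether acetaminophen acted differently with caffeine was tested by an interaction term, which called 0% of genes, with 198 genes under an unadjusted p of 0.05 and none called by DESeq2. JUNB had 3.91 in it (SE 1.49, unadjusted p = 0.00849, adjusted p = 1 in edgeR) and JUN 2.36 (SE 1.39, adjusted p = 1). The interaction of acetaminophen with exosomes also called 0% of genes, with 87 under an unadjusted p of 0.05 and none by DESeq2. FOSB was the member with the smallest p there (-8.85, SE 3.77, adjusted p = 1), on 0, 1, 7 and 0 counts in the 4 libraries.

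Caffeine was compared with and without acetaminophen, and FOSL2 was the member that was higher on both backgrounds. Caffeine alone was 7.13 times the control for FOSL2 (3.73 to 15.7), 1 member higher where 11.6% of genes were, and no member was lower. With acetaminophen on both sides, FOSL2 was 5.15 times as high (3.42 to 8.12). In that pair 6 members were higher, where 18.8% of genes were, with JUNB at 84.1 times (15.0 to 3330, on 1 count), FOSB at 12.9 (2.21 to 520), JUN at 7.61 (5.44 to 11.0), JUND at 6.92 (5.17 to 9.48) and FOS at 2.69 (1.24 to 6.92). Its lower library is acetaminophen alone. With the trend removed FOSB, FOSL2, JUN and JUNB stayed higher and MAFF was lower, at 0.302 times.

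The additive caffeine term called 0.0823% of genes and none of the 8 members with all 9 libraries. FOSL2 had 2.55 (SE 0.76, adjusted p = 0.251), JUNB 2.71 (SE 1.27, adjusted p = 0.658) and JUND 1.59 (SE 0.77, adjusted p = 0.678) in edgeR, the 3 members with an unadjusted p under 0.05. FOSL2 was called without the arsenic 5 µM library (adjusted p = 0.0156), without the arsenic 15 µM library (adjusted p = 0.0441) and in the 6 libraries without arsenic (2.52, adjusted p = 0.0116). JUNB was also called in those 6 libraries (2.61, adjusted p = 0.0481).

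Serum exosomes alone set no member apart from the control, and more members differed when they were added to acetaminophen. Against the control no member was apart in either direction, where 5.01% of genes were, and the ratios that had counts on both sides ran from 0.516 for MAFF (0.292 to 0.932) to 2.03 for FOSL2 (0.999 to 4.65). The exosome term called 0% of genes, had 113 genes and no member at an unadjusted p under 0.05, and DESeq2 called none. Added to acetaminophen, exosomes went with higher JUN (2.43 times, 1.54 to 3.88), JUNB (14.5 times, 1.94 to 643) and JUND (2.70 times, 1.84 to 3.99), 3 members where 10.2% of genes were higher. None of the 3 was apart once the GC and length trend was removed, and JUND then turned to 0.649 times.

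The removal of the GC and length trend mattered where the acetaminophen or arsenic 5 µM library was in the pair. In acetaminophen against control, JUN went from 0.359 to 0.635 times, JUNB from 0.0661 to 0.254 and MAFF from 0.208 to 0.512, and none of the 3 was apart any more. JUND went from 0.814 to 4.05 times and FOSL2 from 1.94 to 2.41, and both were then apart. In arsenic at 5 µM against control, JUND went from 1.04 to 4.28 times and JUN from 0.385 to 0.653, while JUNB stayed lower (0.130 times) and FOSL2 higher (6.30 times). JUND has the highest GC content of the 8 genes, and how much of its change is composition was not tested. In arsenic at 15 µM against control the ratio of JUND was 4.88 before and 5.55 after, and that of JUN 8.78 and 9.27.

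**Figure D5:**
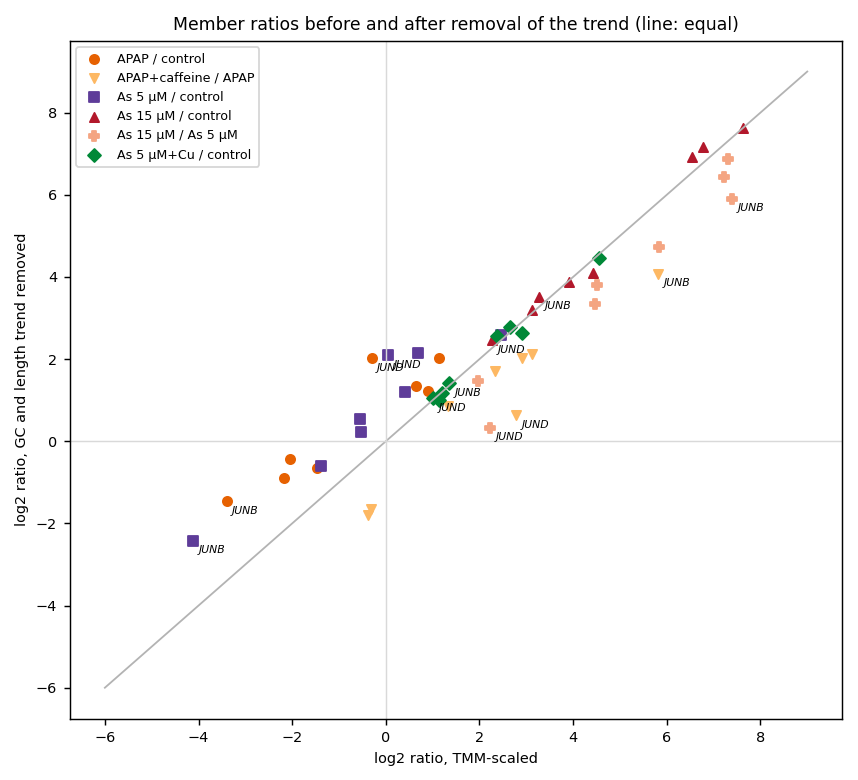
Log2 ratio of each AP-1 gene before (x axis) and after (y axis) removal of the trend on GC content and transcript length, for 6 library pairs, with the line of equality and with JUNB and JUND named. Pairs that hold neither the acetaminophen nor the arsenic 5 µM library (As 15 µM and As 5 µM+Cu against control) lie along the line, and in the other 4 pairs JUND lies far from it.

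The genes whose log2 levels were most like each member's over the 9 libraries were sought among the 10353 protein-coding genes whose mean level was 5 CPM or more. These correlations share libraries, depth and base composition and are descriptions. FOSL1 and MAFF were close to each other (Pearson's r 0.977, and 0.928 without the arsenic 15 µM library), and FOSL1 was closest to CRYAB, a small heat shock protein (r 0.983). CRYAB was at 0 to 0.965 CPM in the 6 libraries without arsenic and at 1.70 (5 µM), 305 (15 µM) and 34.5 CPM (with copper) in the arsenic libraries. MAFF was closest to the transcription factor gene ETS2 (r 0.981).

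JUN was closest to the transcription factor genes GATA2 (r 0.986) and CEBPB (r 0.984), and CEBPB had 26.1 CPM in the control, 9.83 with acetaminophen, 15.3 with arsenic at 5 µM and 288 with arsenic at 15 µM. JUNB was closest to ZNF335 (r 0.988), KEAP1 (r 0.987), the adaptor that marks NFE2L2 for degradation, and SGTA (r 0.984), genes of 60.3% to 62.3% GC. JUND was closest to HES4 (r 0.976), a transcription factor of 73.9% GC. FOSL2 was closest to CPT1A, which imports fatty acids into mitochondria (r 0.961), and CPT1A was at 107 and 124 CPM in the caffeine libraries, 12.5 to 21.5 in the other 4 without arsenic, and 37.9 to 163 with arsenic. FOS was closest to ERICH1 (r 0.976, and 0.857 without arsenic 15 µM) and FOSB to SPRING1 (r 0.968). Among the members, JUN and JUNB kept their likeness without arsenic 15 µM (r 0.912 with and 0.926 without it), and FOS and MAFF did not (0.748 with and 0.020 without it).

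Other genes of the pathway were read from lists by role. Of 17 tested bZIP partners outside the 8 members, 15 had a positive arsenic coefficient with a median of 2.31. The 17 include BATF3, admitted by the arsenic libraries (at most 0.702 CPM without arsenic, 5.02 at 15 µM and 3.34 with copper), so that count and median are a description only. Of the 17, 1 was called, where 0.340% of all tested genes were called higher. That gene, ATF3, a stress-induced partner of JUN, rose by 5.04 (adjusted p = 0.014 in edgeR), and its level was 8.68 CPM in the control, 40.0 with arsenic at 5 µM, 640.5 at 15 µM and 64.9 with copper. The call was kept by DESeq2's test (adjusted p = 0.00111) and lost under DESeq2 size factors (0.051), with protein-coding genes alone (0.119) and without the control (0.682), acetaminophen (0.196), acetaminophen with exosomes (0.148) or arsenic 15 µM (0.0504) library, the adjusted p in edgeR in parentheses. The small Maf genes MAFK and MAFG, relatives of MAFF, were at 12.5 and 28.0 CPM in the control and 186 and 331 CPM at 15 µM, with coefficients of 2.98 (adjusted p = 0.0759) and 2.78 (adjusted p = 0.0943) in edgeR. MAFK differed from MAFF at 5 µM, where it was at 98.3 CPM.

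Of 21 tested AP-1 target genes, 15 had a positive arsenic coefficient (median 1.22). The 21 include genes admitted by the arsenic libraries, such as IL11, MMP1 and MMP10, so this count and median are a description only. CD44, a hyaluronan receptor, rose by 5.38 (adjusted p = 0.0144 in edgeR). It was at 1.93 CPM in the control, below the 2.90 CPM that 3 counts were worth there and so not resolved. The other libraries without arsenic had 1.40 (acetaminophen) to 7.49 CPM (caffeine). In the arsenic libraries it was at 15.3 (5 µM), 185 (15 µM) and 34.1 CPM (with copper). This call was kept by DESeq2's test (adjusted p = 0.00392) and lost under DESeq2 size factors, with protein-coding genes alone and without the control, acetaminophen or acetaminophen with exosomes library (adjusted p between 0.051 and 0.682 in edgeR). The 15 µM term called 3 targets that passed the filter without arsenic, all higher, where 0.795% of all genes were: CD44 (2.90, adjusted p = 0.0253), the growth factor gene HBEGF (3.18, adjusted p = 0.0283) and the urokinase receptor gene PLAUR (4.53, adjusted p = 0.00024) in edgeR. PLAUR was also called by DESeq2 and with protein-coding genes alone, CD44 by DESeq2 alone of these and HBEGF by neither. The cytokine gene IL11 and the collagenase gene MMP1 reached 1 CPM in 0 and 1 of the libraries without arsenic and are described only by level. IL11 had 0 counts in the control and was at 11.1 (5 µM), 502 (15 µM) and 27.8 CPM (with copper), and MMP1 was at 0.965 CPM in the control and 27.3 CPM at 15 µM. The most abundant targets per length went both ways between control and 15 µM, with the keratin gene KRT18 at 3030 and 1531 CPM and the vimentin gene VIM at 457 and 1381 CPM.

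Of the upstream and downstream regulators, MEF2D and ZFP36 were called, both in the 15 µM term, where 0.795% of all genes were called higher. In the arsenic term, where 0.340% of all genes were called higher, none was. Of 23 tested kinases upstream of AP-1, which include the JNK, p38 and ERK cascades, none was called in the arsenic or the 15 µM term, 14 had a positive arsenic coefficient and the median was 0.36. The MAP kinase kinase gene MAP2K2 was at 130 CPM in the control and 137 CPM at 15 µM arsenic. Of 16 serum response and CREB regulators, 14 were positive in the arsenic term (median 0.85) and none called, and MEF2D, a transcription factor of the MADS family, was called in the 15 µM term (2.73, adjusted p = 0.037 in edgeR). Its level was 24.1 CPM in the control and 283 CPM at 15 µM, and the call was lost without the count filter, by DESeq2 and with protein-coding genes alone. Of 13 genes of the decay of early transcripts, 4 were positive in the arsenic term (median -0.33) and ZFP36, which binds AU-rich elements and is itself an early gene, was called in the 15 µM term (2.85, adjusted p = 0.0316 in edgeR), not by DESeq2 or with protein-coding genes alone. ZFP36 was at 13.5 CPM in the control, 6.81 at 5 µM, 131 at 15 µM and 29.3 with copper, and KHSRP, another decay factor, at 283 and 317 CPM in the control and at 15 µM. Of 8 tested genes of AP-1 protein degradation and repression, 3 were positive in the arsenic term (median -0.11) and none was called. The ubiquitin ligase genes ITCH and COP1 were at 86.8 and 34.7 CPM in the control and 145 and 44.5 CPM at 15 µM. None of the 10 lists beside the members had a gene called in the acetaminophen, exosome or caffeine term.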

How the data were processed

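The files that the authors deposited hold raw read counts, 1 row for each Ensembl gene. Per the submitters' processing notes, TopHat2 2.0.13, HTSeq 0.6.1 and GRCh37 were used; annotation release, strand setting and filters are not stated there. Summary lines that name no gene held 42.3% to 70.3% of reads and did not count toward depth. Names, transcript length and GC content came from GENCODE 29 and gene name tables, promoters from RefSeq, with no coordinates converted.

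The 18237 genes that reached 1 CPM in 2 or more libraries were scaled by TMM and fitted with edgeR 4.0.16 (quasi-likelihood, 5 coefficients, 4 residual degrees of freedom, common dispersion 0.283; extra terms 1 at a time, 3 residual degrees of freedom), with Benjamini-Hochberg adjustment over all genes, tested on simulated data. DESeq2 1.42.0 was an alternative. An SE is the absolute log2 fold change divided by the square root of F. Library pairs were compared by exact conditional binomial 95% intervals; a library at 0 counts was set to 3 for a bound. The GC and length trend was a lowess fit over genes with at least 10 reads in a pair.

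The 8 members and the gene lists were chosen with earlier results of these data known. Named besides the members were list genes called in a term (at most 6 a list), otherwise the 3 with the highest level per length (part is printed; MAFK, MAFG, KRT18 and VIM were added after their values were seen), and for each member the 3 most correlated genes, of which a part is printed. Software was R 4.3.3, limma 3.58.1, Python 3.11.15, pandas 2.3.3, numpy 2.4.6, statsmodels 0.14.6, scipy 1.17.1 and matplotlib 3.10.9.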

Additional observations from a re-analysis of the deposited data

How the results depend on the processing

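Genes called in the acetaminophen term (4) were 46 without the count filter, 49 by DESeq2, 2 among protein-coding genes, 58 without the acetaminophen and arsenic 5 µM libraries together (chosen after seeing the data), 249 in the 6 libraries without arsenic, and 0 to 179 with 1 library left out. The exosome term (0) gave 3 in those 6 libraries and 0 to 3 with 1 library left out. The caffeine term (15) gave 7 under DESeq2 size factors, 49 without the filter, 51 by DESeq2, 3 among protein-coding genes, 72 without both libraries, 292 in the 6 libraries and 0 to 221 with 1 library left out; members called in it (0) were 2 in the 6 libraries and 0 to 1 with 1 library left out. The arsenic term (90) gave 24 under DESeq2 size factors, 269 without the filter, 170 by DESeq2, 1 among protein-coding genes and 0 to 780 with 1 library left out. Members called in the arsenic term (2) were 0 under DESeq2 size factors, 6 without the filter, 1 by DESeq2, 0 among protein-coding genes, 1 without both libraries and 0 to 8 with 1 library left out, the 8 without arsenic 5 µM. The 15 µM term (198 genes, 5 members, FOSL1 among them) gave 96 genes and 3 members by DESeq2 and 49 genes and 3 members among protein-coding genes. Member counts in both arsenic terms can include FOSL1, which the arsenic libraries admitted and which is a description there. The cause was not tested.

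With the GC and length trend removed, members higher and lower were 2 and 0 in acetaminophen against control, 2 and 1 in arsenic 5 µM against control, 0 higher in acetaminophen with exosomes against acetaminophen, 1 lower in acetaminophen with caffeine against acetaminophen, and 1 lower in arsenic with copper against arsenic 5 µM. JUND in acetaminophen with exosomes against acetaminophen turned to a log2 ratio of -0.63. In exosomes against control 1 member was lower under DESeq2 size factors, among protein-coding genes and at a 1.5-fold threshold. Of 384 member ratios under other settings, 348 stayed within their counting interval, whether or not the pair was counted as apart. Intervals on few counts are wide and hard to leave, such as 24.8 to 5504 times for FOSL1 in arsenic 15 µM against control. All 16 arsenic and 15 µM coefficients of the members stayed positive under the alternatives run. No paired analysis was possible because each condition has 1 library and the labels carry no replicate numbers. Depth limits FOSB and FOSL1, which had 9 or fewer counts in each library without arsenic except FOSB in acetaminophen with caffeine (48).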
